A study of Mus musculus with 24 samples.

Results

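The proliferin genes Prl2c2, Prl2c3 and Prl2c5 were followed across 24 RNA-seq libraries of 3134 cells, an established mouse mammary adenocarcinoma line. The 3 genes were taken by name from a table of 55341 genes, with earlier results of these counts known. The comparison behind their choice was not recorded, so their levels and differences are given as a description with no test. All 3 were counted, and 2 of the 3, Prl2c3 and Prl2c2, passed the filter on low counts. Prl2c5 did not and is described by its counts.

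Proliferins are secreted glycoprotein hormones of the prolactin family, best known from the trophoblast giant cells of the placenta, where they are linked to growth and the formation of blood vessels. In cultured mouse cells they are known as products induced by serum and growth factors, and they bind the mannose 6-phosphate receptor Igf2r. The promoter of a proliferin gene is a classic composite glucocorticoid response element, at which the glucocorticoid receptor (Nr3c1) acts together with AP-1, the dimers of Fos and Jun proteins, and the outcome depends on the AP-1 members present.

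By its title, the study concerns how transcription factors and NIPBL, a loader of the cohesin complex, place cohesin at enhancers. All cells carried a hairpin against NIPBL that IPTG switches on, and a piggyBac construct: an empty vector, NIPBL WT, or the NIPBL mutants C1, C2 or C1-C2, whose changes the labels do not describe. Cells were kept for 3 days in charcoal-stripped serum, and then received 100 nM dexamethasone, a synthetic glucocorticoid, or ethanol for 2 hours. The 12 groups held 2 libraries each. They were empty-vector cells without IPTG and, with 1 mM IPTG for 3 days, cells with the empty vector, WT, C1, C2 and C1-C2. Each of these was taken in ethanol and in dexamethasone. There was no group with IPTG and without the hairpin, so IPTG and the hairpin cannot be told apart. The labels name 1 line for each construct, so a construct and its line cannot be told apart either. They do not say that replicates were separate cultures, and p-values below measure only the spread between these libraries.

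The 3 genes lie within 401 kb on chromosome 13 (mm10). Prl2c3 spans chr13:12790816-12800079 on the minus strand, Prl2c2 spans chr13:12996125-13005383 on the minus strand, and Prl2c5 spans chr13:13182715-13191923 on the plus strand. They are near-identical copies, and this limits how far their counts can be read gene by gene. The coding sequences of Prl2c3 and Prl2c2 (the longest open reading frame of the main transcript in GENCODE vM21) were 99.6% identical, with 3 substitutions in 675 bases. Counted from the A of the start codon, with the base of Prl2c3 first, these were C14T, A200C and G319T. Prl2c5 was 96.0% identical to Prl2c3 and 96.1% identical to Prl2c2. The first 240 coding bases are shown because they hold 2 of the 3 differences between Prl2c3 and Prl2c2. Capitals mark the 8 positions at which at least 1 of the 3 genes differs.
Prl2c3: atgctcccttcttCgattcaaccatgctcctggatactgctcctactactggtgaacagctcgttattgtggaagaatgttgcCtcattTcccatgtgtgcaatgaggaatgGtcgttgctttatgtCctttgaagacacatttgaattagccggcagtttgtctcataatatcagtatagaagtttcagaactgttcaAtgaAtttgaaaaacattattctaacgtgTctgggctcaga
Prl2c2: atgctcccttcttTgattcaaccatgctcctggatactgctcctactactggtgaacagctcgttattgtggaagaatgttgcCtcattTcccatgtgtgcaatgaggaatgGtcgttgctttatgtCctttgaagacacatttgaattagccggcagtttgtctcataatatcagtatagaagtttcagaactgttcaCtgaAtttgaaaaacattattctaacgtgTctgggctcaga
Prl2c5: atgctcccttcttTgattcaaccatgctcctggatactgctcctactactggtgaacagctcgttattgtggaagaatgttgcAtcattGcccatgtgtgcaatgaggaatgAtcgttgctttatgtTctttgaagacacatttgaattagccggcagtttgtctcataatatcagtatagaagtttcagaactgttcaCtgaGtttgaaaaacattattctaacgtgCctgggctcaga

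Of all stretches of 75 bases in the main transcript, 30.1% in Prl2c3, 19.9% in Prl2c2 and 80.4% in Prl2c5 occurred in no other gene of the annotation. At 100 bases these shares were 37.7%, 33.6% and 91.3%. In the main transcript most stretches of Prl2c3 and Prl2c2 of these lengths thus occurred in more than 1 gene. Over all annotated isoforms 48.3% in Prl2c3 and 28.2% in Prl2c2 occurred in no other gene at 75 bases, and 55.3% and 43.1% at 100 bases. How the counting treated reads that align to several places, and whether it used strand, is not given in the sources used here, so the split between the genes is uncertain.

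The 250 bases before the RefSeq start (GRCm38.p6) were matched for 2 of the 3 genes, Prl2c3 and Prl2c5. They are shown because one holds an AP-1 motif and the other does not. Both are written 5′ to 3′ in the direction of transcription, with capitals at bases 42 to 48. The first of these lies 209 bases before the start.
Prl2c3, chr13:12800080-12800329, minus strand: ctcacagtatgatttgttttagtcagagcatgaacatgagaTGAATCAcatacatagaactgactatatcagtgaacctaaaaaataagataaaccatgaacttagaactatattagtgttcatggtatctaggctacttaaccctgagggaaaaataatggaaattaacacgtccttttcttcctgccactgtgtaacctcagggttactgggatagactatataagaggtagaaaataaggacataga
Prl2c5, chr13:13182466-13182715, plus strand: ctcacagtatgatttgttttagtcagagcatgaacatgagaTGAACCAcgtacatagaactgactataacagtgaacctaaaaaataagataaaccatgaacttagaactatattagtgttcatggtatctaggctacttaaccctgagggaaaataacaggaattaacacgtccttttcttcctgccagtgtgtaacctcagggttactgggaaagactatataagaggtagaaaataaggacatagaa

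The capitals in Prl2c3 match the AP-1 motif TGANTCA, searched on both strands, and those in Prl2c5 do not. The substitution in between is T46C, with the base of Prl2c3 first and position 1 at the 5′ end of the sequence shown. This motif occurred in 6.75% of 32851 promoters of the same table. The 2 sequences were 96.0% identical, and each held the motif TATATAA of the TATA box at 1 place, as did 3.04% of all promoters. The hexamer AGAACA, the core of a glucocorticoid receptor site, was found in neither sequence on either strand and in 16.1% of all promoters. No letters of these motifs overlap. A match is a match of letters only, and no binding was measured.

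The 12 ethanol libraries held 32532858 to 42711188 counts and the 12 dexamethasone libraries 45038685 to 72857880. The numbers in the library names are lower for all ethanol libraries than for all dexamethasone ones. The labels do not say what the numbers stand for, and any order of preparation cannot be told apart from the treatment. Nipbl, the target of the hairpin, stood at 151 to 186 CPM (counts per 1000000 counts of the library, on sizes scaled with TMM factors) in the 4 libraries without IPTG and at 48.0 to 73.3 CPM in the 20 with IPTG. In one C1-C2 library in ethanol (replicate 2) the title and the treatment label disagree. It was grouped by its title, and its level of Per1, a direct glucocorticoid target, was 24.4 CPM against 22.1 to 26.5 CPM over all ethanol libraries and 269 to 308 CPM in dexamethasone. Tsc22d3, the other check of the hormone, stood at 12.3 CPM in it. The range was 9.94 to 14.1 CPM over all ethanol libraries and 148 to 298 CPM in dexamethasone. Both levels were those of an ethanol library. Alternatives below that move this library to dexamethasone therefore mix the treatments in 1 group. Of 10 mammary epithelial markers only Krt14 reached a median of 1 CPM, with Epcam and Cldn3 at 0 in every library, while 5 of 7 mesenchymal markers did. Of 8 trophoblast markers none reached it. They summed to at most 0.0692 CPM in any library, with Cdx2 and Prl3d1 (placental lactogen) at 0.

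Without IPTG, proliferin RNA was low. Prl2c3 stood at 1.66 and 1.49 CPM in ethanol (71 and 51 counts) and at 1.89 and 2.59 CPM in dexamethasone. Prl2c2 stood at 0.397 and 0.467 CPM in ethanol (17 and 16 counts) and at 1.22 and 2.03 CPM in dexamethasone. For both genes all 4 of these libraries lay below all 20 libraries with IPTG. In those 20, Prl2c3 ran from 9.59 to 112 CPM and Prl2c2 from 2.57 to 27.2 CPM. How many of all tested genes were apart in this way was not counted.

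With the hairpin induced and the empty vector, Prl2c3 stood at 21.6 and 38.3 CPM in ethanol (30.0 ± 11.9, mean ± SD, n = 2) and at 25.6 and 29.6 CPM in dexamethasone (27.6 ± 2.82, n = 2). Prl2c2 stood at 4.66 and 9.02 CPM in ethanol and at 8.95 and 14.8 CPM in dexamethasone. Each pair lay above both libraries without IPTG of the same treatment. Prl2c3 was 18.8-fold higher with IPTG in ethanol (log2 fold change 4.23 ± 0.94, standard error of the edgeR fit) and 12.2-fold higher in dexamethasone (3.61 ± 0.83). Prl2c2 was 15.7-fold higher in ethanol (3.97 ± 1.28) and 7.16-fold higher in dexamethasone (2.84 ± 0.88). Both libraries lay above both of the other group in 27.5% of the 16934 tested genes in ethanol and in 28.8% in dexamethasone. In a bulk library more cells that make a transcript and more of it per cell cannot be told apart.

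**Figure D1:**
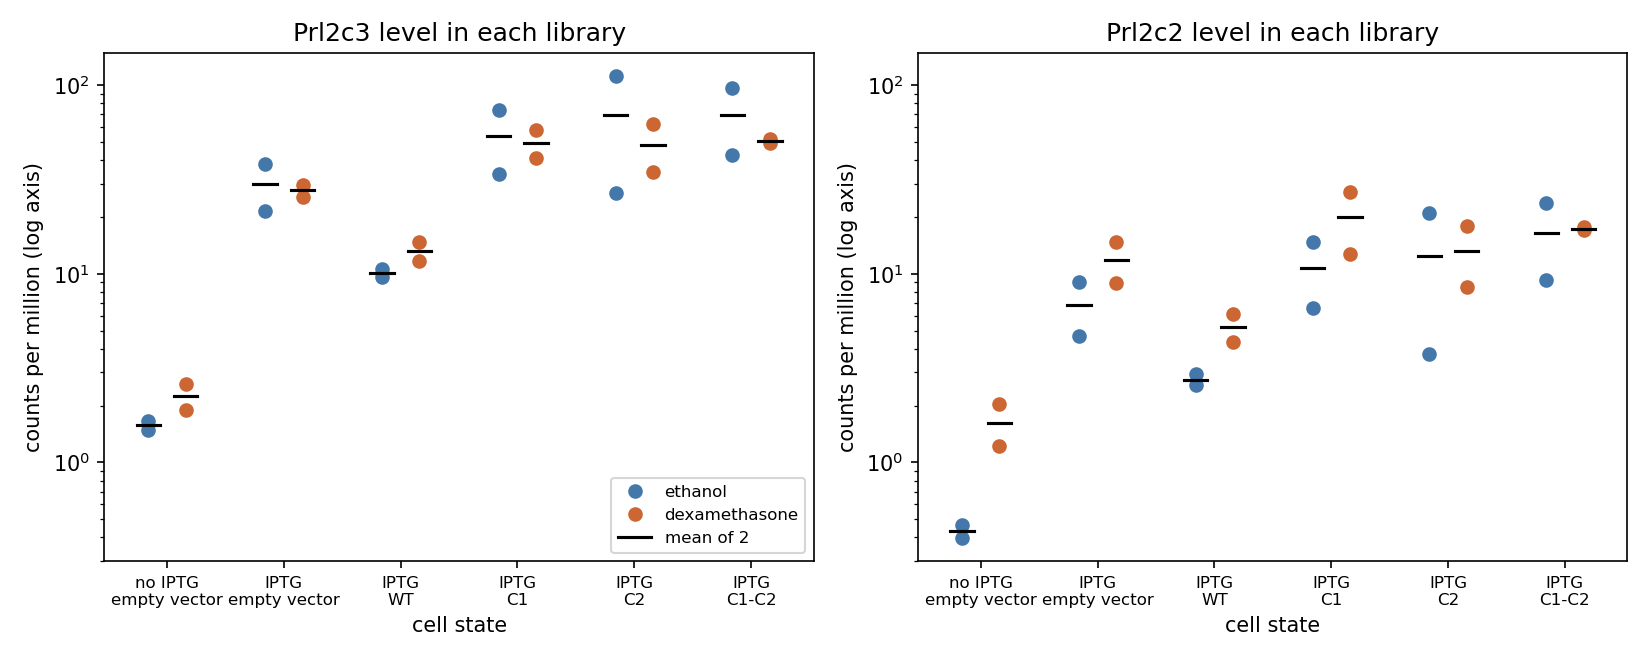
Level of Prl2c3 (left) and Prl2c2 (right) in CPM on a log axis, for 6 cell states on the horizontal axis. Each point is 1 library, in ethanol or dexamethasone, and bars mark the mean of the 2. The libraries without IPTG lie lowest, between 1.49 and 2.59 for Prl2c3, and those with the WT construct next, between 9.59 and 14.7.

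Cells that received NIPBL WT held proliferin levels between those 2 states. Prl2c3 stood at 9.59 and 10.6 CPM in ethanol and at 14.7 and 11.7 CPM in dexamethasone, and Prl2c2 at 2.92 and 2.57 CPM in ethanol and at 6.09 and 4.33 CPM in dexamethasone. For both genes and in both treatments, both WT libraries lay below both empty-vector libraries with IPTG and above both libraries without IPTG. Against the empty vector with IPTG, Prl2c3 was 2.95-fold lower in ethanol (log2 fold change -1.56 ± 0.70) and 2.09-fold lower in dexamethasone (-1.06 ± 0.64). Prl2c2 was 2.46-fold lower (-1.30 ± 0.91) and 2.27-fold lower (-1.18 ± 0.74). Both WT libraries lay below both empty-vector ones in 22.7% of tested genes in ethanol and in 24.1% in dexamethasone. Against the cells without IPTG, a comparison added after the values were seen, Prl2c3 was 6.37-fold higher with WT in ethanol (2.67 ± 1.06) and 5.83-fold higher in dexamethasone (2.54 ± 0.87). Both libraries lay above in 23.2% and 24.7% of tested genes in these comparisons.

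Cells with the mutants C1, C2 and C1-C2 had the highest mean levels. In ethanol Prl2c3 stood at 33.6 and 73.7 CPM with C1, at 26.9 and 112 CPM with C2, and at 42.4 and 97.1 CPM with C1-C2. In dexamethasone it stood at 40.9 and 58.1 CPM with C1, at 34.7 and 61.8 CPM with C2, and at 51.5 and 49.1 CPM with C1-C2. All 12 mutant libraries thus lay above the 4 WT libraries for Prl2c3, and how many of all tested genes did so was not counted. The same did not hold for Prl2c2. Its lowest mutant library, C2 in ethanol at 3.77 CPM, lay below both WT libraries in dexamethasone, at 6.09 and 4.33 CPM. Prl2c2 stood in ethanol at 6.62 and 14.8 CPM with C1, at 3.77 and 21.02 CPM with C2, and at 9.24 and 23.7 CPM with C1-C2. In dexamethasone it stood at 12.8 and 27.2 CPM with C1, at 8.46 and 17.9 CPM with C2, and at 17.7 and 17.0 CPM with C1-C2. The ethanol replicates of the mutants disagreed, with replicate 2 of Prl2c3 at 2.19 times replicate 1 for C1, 4.15 times for C2 and 2.29 times for C1-C2. Replicate 2 was also the higher one with the empty vector and IPTG and, by 1.10 times, with WT, so that it was higher in all 5 states with IPTG in ethanol.

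Against WT, Prl2c3 was higher in all 6 comparisons of a mutant in 1 treatment, by 1.86 to 2.79 on the log2 scale (3.64-fold to 6.93-fold, standard errors 0.63 to 0.68). Prl2c2 was higher in all 6 as well, by 1.32 to 2.59 (standard errors 0.72 to 0.86). The libraries did not overlap in any of these 12 cases, and both libraries of the mutant lay above both of WT in 20.9%, 23.2% and 22.3% of tested genes for C1, C2 and C1-C2 in ethanol and in 24.2%, 24.3% and 21.2% in dexamethasone. The 12 cases are not separate. All 3 mutants share the 2 WT libraries of a treatment, and the 2 genes are near-identical. How many tested genes were apart in all 6 comparisons at once was not counted. Leaving out the higher replicate, replicate 2, brought Prl2c3 in ethanol to 1.74 for C1, 1.42 for C2 and 2.08 for C1-C2. Prl2c2 then stood at 1.27, 0.46 and 1.75. In dexamethasone it brought Prl2c2 to 1.29 for C1 and 0.69 for C2.

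Against the empty vector with IPTG the mutants were less clearly apart. In dexamethasone both libraries of each mutant lay above both empty-vector libraries for Prl2c3, with log2 differences of 0.84 for C1, 0.80 for C2 and 0.86 for C1-C2 (standard errors 0.59 to 0.61 over all 6 comparisons). In ethanol the differences were 0.85 for C1, 1.21 for C2 and 1.23 for C1-C2, and only C1-C2 did not overlap with the empty vector. For Prl2c2 the 6 differences ran from 0.14 to 1.29, and only C1-C2 did not overlap, in both treatments. Both libraries of C1, C2 and C1-C2 lay above both of the empty vector in 17.9%, 20.2% and 18.3% of tested genes in ethanol and in 21.4%, 20.6% and 21.3% in dexamethasone. Single libraries decided the values in ethanol. Without replicate 2 of C2, the difference of C2 turned to -0.14 for Prl2c3 and to -0.84 for Prl2c2. The difference of C1 without its replicate 2 was 0.17 and -0.03, and that of C1-C2 without its replicate 2 was 0.51 and 0.45. In dexamethasone the difference of C1 for Prl2c2, 0.74 with all libraries, was 0.11 without replicate 2 of C1. The difference of C2 for Prl2c2 turned to -0.49 without replicate 2 of C2 and to -0.17 without replicate 1 of the empty vector.

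**Figure D2:**
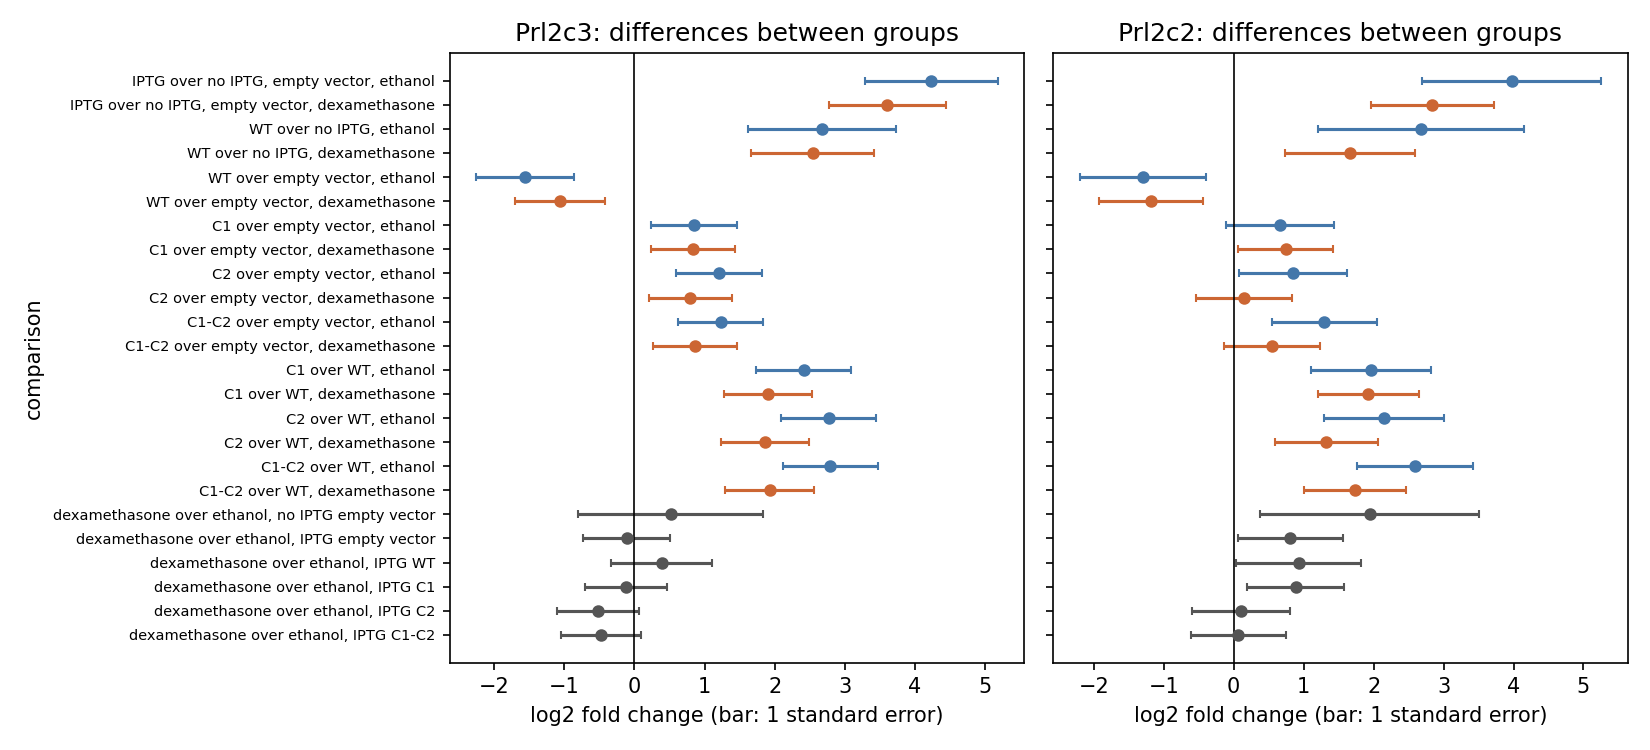
Log2 fold change of Prl2c3 (left) and Prl2c2 (right) for 24 comparisons of 2 groups, named on the vertical axis, with bars of 1 standard error. Blue points are comparisons in ethanol, orange points in dexamethasone, and grey points compare dexamethasone with ethanol. Values against no IPTG and against WT lie to the right of 0, WT against the empty vector lies to the left, and the responses of Prl2c3 to dexamethasone lie around 0.

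In each treatment the order of the mean levels was no IPTG, WT, empty vector with IPTG and then the mutants. For both genes the first 3 states did not overlap with their neighbours in this order. The mutants overlapped with one another and, apart from Prl2c3 in dexamethasone, with the empty vector as its next neighbour. Per kilobase of exon, Prl2c3 stood at 22.0 and Prl2c2 at 6.28 CPM in empty-vector cells with IPTG in ethanol, on exon lengths of 1360 and 1090 bases. Over all isoforms, 48.3% of 75-base stretches in Prl2c3 and 28.2% in Prl2c2 occurred in no other gene. The gap between the 2 genes may therefore depend on how shared reads were counted.

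In the fit of all libraries, the response of Prl2c3 to 2 hours of dexamethasone was no larger than its standard error in any state. Its log2 response was 0.52 ± 1.32 without IPTG, -0.11 ± 0.62 with the empty vector and IPTG, and 0.39 ± 0.72 with WT. It was -0.12 with C1, -0.52 with C2 and -0.48 with C1-C2. Both dexamethasone libraries lay above both ethanol libraries in the cells without IPTG and with WT, and the libraries overlapped in the other 4 states. The log2 responses of Prl2c2 were 1.94 ± 1.56 without IPTG, 0.81 ± 0.76 with the empty vector, 0.93 ± 0.89 with WT and 0.89 with C1, but 0.10 with C2 and 0.07 with C1-C2. Its libraries, too, did not overlap without IPTG and with WT only. When only the 4 libraries compared were fitted, the standard errors in these 2 states were smaller. The response of Prl2c3 was then 0.50 ± 0.25 without IPTG and 0.39 ± 0.13 with WT, and that of Prl2c2 was 1.91 ± 0.35 and 0.93 ± 0.21. Both dexamethasone libraries lay above both ethanol ones in 34.0% of tested genes without IPTG, 34.5% with the empty vector, 31.9% with WT, 32.6% with C1, 32.4% with C2 and 35.5% with C1-C2. Leaving out replicate 2 in ethanol set the response of C2 at 0.83 for Prl2c3 and 1.79 for Prl2c2, and that of C1 at 0.55 and 1.57. It set that of C1-C2, whose replicate 2 is the library with labels that disagree, at 0.24 and 0.90, and that with the empty vector at 0.34 and 1.33. Leaving out replicate 1 in ethanol instead set the response of Prl2c3 at -0.58 with C1, -1.22 with C2, -0.96 with C1-C2 and -0.48 with the empty vector. It set that of Prl2c2 at -0.69 with C2, -0.46 with C1-C2 and 0.39 with the empty vector. Without replicate 2 of C1 in dexamethasone, the response of Prl2c2 with C1 was 0.26. In the fit of all libraries, no difference of responses between states exceeded its standard error. The differences between empty-vector cells with and without IPTG, and of each construct from the empty vector with IPTG, ran from -0.63 to 0.50 for Prl2c3 (standard errors 0.85 to 1.46) and from -1.13 to 0.12 for Prl2c2 (standard errors 1.01 to 1.80). In the compared libraries alone, 3 of them did: -0.64 ± 0.62 for Prl2c3 and -1.15 ± 0.94 for Prl2c2 with against without IPTG, and 0.50 ± 0.43 for Prl2c3 with WT against the empty vector.

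The split of counts between the 2 near-identical genes differed between the treatments more evenly than their levels did. Prl2c2 took 12.3% to 23.9% of the summed Prl2c2 and Prl2c3 counts in the 12 ethanol libraries (median 18.5%) and 19.6% to 43.9% in the 12 dexamethasone libraries (median 26.5%). In 6 of 6 cell states both dexamethasone libraries lay above both ethanol libraries. How often the split between 2 other genes is apart in this way was not counted. The treatments also differ in depth and in the numbers of the library names, and these cannot be told apart from the hormone. Without IPTG the share was 19.3% (95% exact Clopper-Pearson interval 11.7% to 29.1%) and 23.9% (14.3% to 35.9%) in ethanol, against 39.3% (31.1% to 47.9%) and 43.9% (37.7% to 50.2%) in dexamethasone. With IPTG in dexamethasone it ran from 19.6% to 33.3%, below both libraries without IPTG. The C2 cells had the lowest shares in each treatment, at 12.3% and 15.9% in ethanol and 19.6% and 22.5% in dexamethasone. These intervals cover counting error only, and since reads shared by both genes may be split or dropped, the share is that of assigned counts and not of messages. The share was looked at after the values were seen and carries no test.

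**Figure D3:**
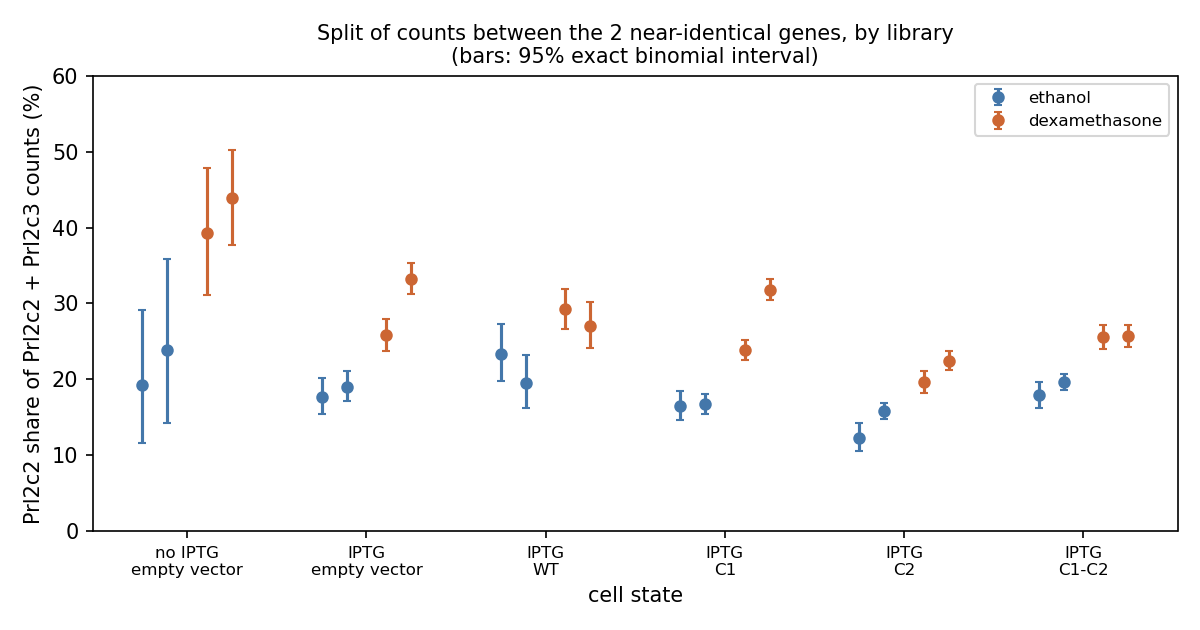
Share of Prl2c2 in the summed counts of Prl2c2 and Prl2c3, in percent, for each library of 6 cell states. Bars are 95% exact binomial intervals. The orange dexamethasone points lie above the blue ethanol points within each state, with the highest share, 43.9%, in a library without IPTG.

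Prl2c5, whose sequence is the easiest of the 3 to tell apart, was close to absent. It had 0 to 7 counts in a library and 65 in all 24, with 3 libraries at 0 and 15 libraries at 3 counts or fewer. A count of 0 allows up to 3 counts. The 20 libraries with IPTG held 60 counts (0.0640 CPM) and the 4 without held 5 (0.0282 CPM), a ratio of 2.27 with a 95% exact binomial interval of 0.920 to 7.24, which covers counting error only. Its counts were 0.155% of those of Prl2c3 with IPTG and 1.43% without. Whether they came from Prl2c5 or from reads of the other genes was not tested.

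The rest of the prolactin family was close to absent as well. Of 24 other family genes listed, 23 were in the table, 9 had a count in any library, and none passed the filter. The highest count in a library was 6, for Prl7a1. Prl7d1, the proliferin-related protein that opposes blood vessel growth, had 0 to 2 counts. Gm7040, which shares stretches of sequence with the proliferins, had 11 counts over the 20 libraries with IPTG and 0 over the 4 without. These counts are too few to compare the 2 sets.

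Among the listed receptors and the enzymes that add the mannose 6-phosphate tag, little differed. Of 6 genes listed, 5 were tested, and Prlr, the prolactin receptor, was not. With IPTG in the empty-vector cells 0 rose and 0 fell in ethanol (edgeR, adjusted p under 0.05), with 2 at an unadjusted p under 0.05 and 0 called by DESeq2. In dexamethasone 0 rose and 1 fell. That gene was Igf2r, at 99.4 ± 5.76 CPM with IPTG and 122 ± 2.51 without (n = 2 each, log2 fold change -0.30 ± 0.10, edgeR adjusted p = 0.0378). The call was lost without any 1 of the 4 libraries compared, and on moving the library with disagreeing labels to dexamethasone. Over all tested genes 7.16% rose and 6.24% fell with IPTG in ethanol, and 8.36% rose and 8.49% fell in dexamethasone. The median log2 difference of the 5 genes was -0.08 in ethanol and -0.10 in dexamethasone, against -0.01 and 0.00 over all tested genes.

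The factors known to act on the proliferin promoter, 8 of 8 of them tested, behaved unevenly. With IPTG in ethanol 1 of the 8 rose, Fosb (log2 fold change 0.69 ± 0.17, edgeR adjusted p = 0.00752), and 1 fell, Fosl2. In dexamethasone 0 rose and 4 fell: Fos, Fosl1, Fosl2 and Jund. With IPTG, 7.16% of all tested genes rose and 6.24% fell in ethanol, and 8.36% rose and 8.49% fell in dexamethasone. The median log2 difference of the 8 was -0.08 in ethanol and -0.22 in dexamethasone. Fosl2, the AP-1 protein Fra-2, stood at 105 ± 1.25 CPM with IPTG against 174 ± 11.5 without in ethanol (n = 2 each, log2 fold change -0.73 ± 0.06, edgeR adjusted p = 1.01e-08). In dexamethasone it stood at 64.6 ± 0.87 against 152 ± 7.17 CPM (-1.23 ± 0.06, edgeR adjusted p = 1.85e-12). With WT it was higher than with the empty vector, by 0.39 in ethanol, where its adjusted p was 0.000701 (edgeR). In dexamethasone the difference was 0.42, with an adjusted p of 0.00015 (edgeR), and no other gene of the 8 was called in either comparison. Both calls of Fosl2 with WT were kept in 17 alternatives. They were lost only when the library with disagreeing labels, whose Per1 level was that of ethanol, was moved to dexamethasone. Over all tested genes 0.632% rose and 0.526% fell with WT in ethanol, and 2.36% rose and 1.84% fell in dexamethasone. Fosl1, or Fra-1, fell by 0.65 with IPTG in dexamethasone (edgeR adjusted p = 0.00167). Jund fell by 0.29 (edgeR adjusted p = 0.00414), a call lost without replicate 1 of the dexamethasone cells that had no IPTG. Fos, at 1.40 ± 0.22 CPM without IPTG and 0.64 ± 0.01 with it in dexamethasone, fell by 1.14 (edgeR adjusted p = 0.00982), and that call was lost without either library with IPTG or without replicate 2 of those that had none. The call of Fosb was lost without replicate 2 of either ethanol group. Moving the library with disagreeing labels also ended the calls of Fosb, Fosl1 and Jund.

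The same factors moved with the hormone. In cells without IPTG 3 of the 8 rose with dexamethasone, Fos (log2 fold change 1.90 ± 0.34, edgeR adjusted p = 7.89e-05), Fosb (0.77 ± 0.17) and Jund (0.90 ± 0.07). Another 4 fell, Nr3c1 (-0.92 ± 0.05, edgeR adjusted p = 7.43e-14), Jun (-0.57 ± 0.19), Fosl1 (-0.38 ± 0.12) and Fosl2 (-0.20 ± 0.06). Over all tested genes 19.8% rose and 18.2% fell. Nr3c1, the receptor itself, stood at 198 ± 2.63 CPM in ethanol and 105 ± 0.18 CPM in dexamethasone. The call of Fosl1 was lost without any 1 of the 4 libraries, that of Jun with no filter on low counts and without replicate 2 in ethanol or either library in dexamethasone, and that of Fosl2 without replicate 2 in ethanol or replicate 1 in dexamethasone. All 3 were also lost on moving the library with disagreeing labels. Together the count of 7 fell to 4 on that move, without replicate 1 in dexamethasone or without replicate 2 in ethanol.

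Genes around the cluster did not share the size of the proliferin difference. This list was added after the values were seen. Within 500 kb of the 3 genes lie 48 other genes, of which 10 were tested and 22 had 3 counts or fewer over all libraries. With IPTG in ethanol 3 of the 10 rose and 1 fell, and their log2 differences ran from -0.60 to 0.47. In dexamethasone 3 rose and 2 fell, from -1.19 to 0.67. Over all tested genes 7.16% rose and 6.24% fell with IPTG in ethanol, and 8.36% rose and 8.49% fell in dexamethasone. Nid1, which encodes the basement membrane protein nidogen-1 and starts 637 kb from the Prl2c3 start, was called in both treatments. It stood at 73.8 ± 7.79 CPM with IPTG and 53.2 ± 1.62 without in ethanol (n = 2 each, log2 fold change 0.47 ± 0.08, edgeR adjusted p = 0.00026). In dexamethasone it stood at 71.9 ± 0.44 and 54.0 ± 0.94 CPM (0.41 ± 0.08, edgeR adjusted p = 0.000604). Gpr137b (0.30 in ethanol, 0.25 in dexamethasone) and the galectin gene Lgals8 (0.24 and 0.35) rose in both treatments, and Lyst (-0.60 and -0.58), a regulator of lysosome size, fell in both. Leaving out 1 library brought the count called to 2 in ethanol, without replicate 1 of the cells that had no IPTG. In dexamethasone it brought it to 1 without replicate 2 with IPTG and to 2 without replicate 1 of the cells that had none. In ethanol Gpr137b lost its call without replicate 2 of the cells that had no IPTG, Lyst without their replicate 1, and Lgals8 without that library or either with IPTG. In dexamethasone all 3 lost it without replicate 2 with IPTG, and Gpr137b and Lgals8 also without replicate 1 of those that had none. Moving the library with disagreeing labels ended the calls of Gpr137b in both treatments and of Lgals8 in ethanol. Between WT and the empty vector 0 of the 10 were called by edgeR in either treatment, with 1 at an unadjusted p under 0.05 in each and 0 called by DESeq2.

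**Figure D4:**
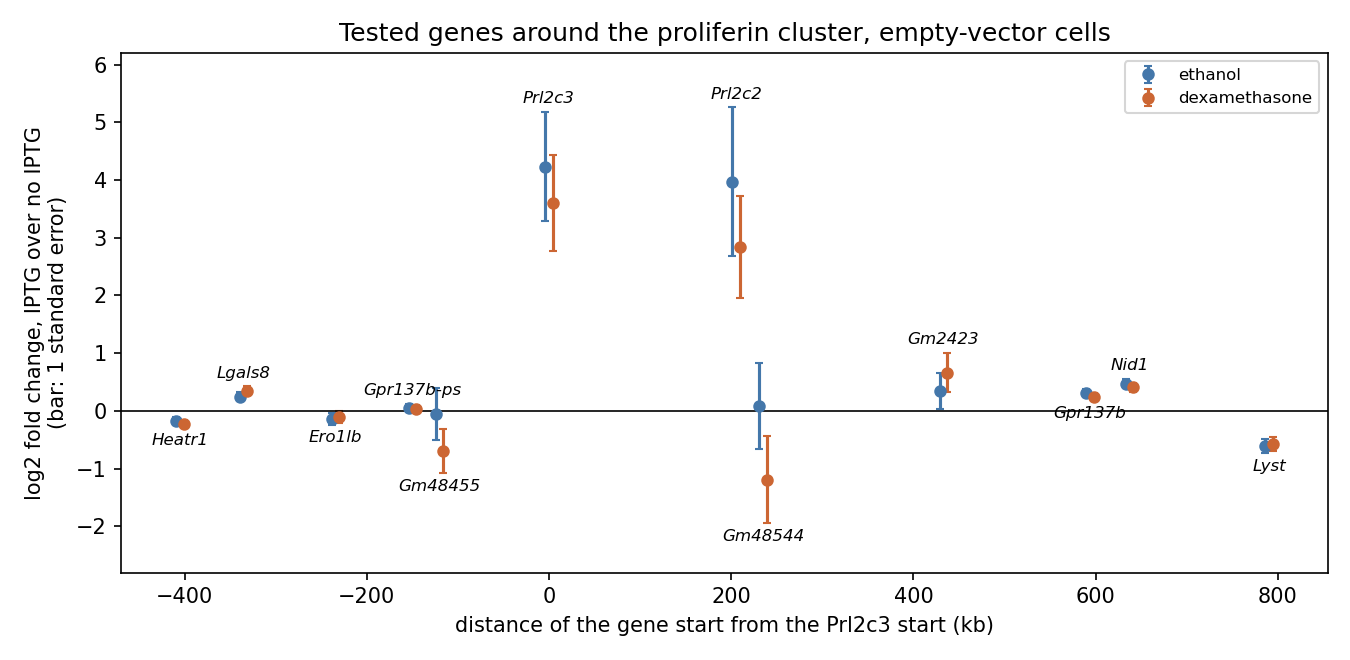
Log2 fold change of IPTG over no IPTG in empty-vector cells (vertical axis) against the distance of a gene's start from the Prl2c3 start in kb (horizontal axis), for the tested genes within 500 kb of the cluster and the 2 tested proliferin genes. Bars are 1 standard error. Prl2c3 and Prl2c2 lie between 2.84 and 4.23, while the 10 other genes lie between -1.19 and 0.67.

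Nid1 was also among the genes whose pattern was most like that of the summed proliferins. Over the 24 libraries and 12381 genes with a mean of at least 1 CPM, the 8 highest Pearson correlations of log2 (CPM + 0.5) were those of Fer1l6 (0.96), Blnk (0.96), Pcolce2 (0.95), 2610507B11Rik (0.95), Nid1 (0.95), Gsta2 (0.94), Pkp3 (0.94) and Dynap (0.94). Prl2c3 and Prl2c2 correlated at 0.95 with each other. After the mean of each treatment had been subtracted, the 8 highest were Dynap (0.98), Inpp4b (0.97), Ghr (0.97), Axl (0.97), Prrg4 (0.97), Fer1l6 (0.97), Esd (0.96) and Blnk (0.96), so that Fer1l6, Blnk and Dynap were named under both. Libraries share line, treatment and IPTG, and these values describe the libraries with no test. Fer1l6 ran from 0.544 to 0.729 CPM without IPTG and from 1.56 to 6.04 CPM with it, and Blnk, an adaptor of B cell receptor signalling, from 9.78 to 11.3 and from 18.2 to 30.7 CPM. Ghr, the growth hormone receptor, ran from 15.9 to 20.4 and from 20.7 to 39.3 CPM. The 4 libraries without IPTG lay below all 20 with IPTG for each of these 3 genes. As the genes were picked for their likeness to the proliferins, this separation is partly fixed by that choice.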

How the data were processed

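The authors deposited raw counts per gene for 24 libraries of Illumina Stranded Total RNA Prep with Ribo-Zero Plus, per the labels' protocols. Per the submitters' processing notes bcl2fastq 2.20, cutadapt 1.18, STAR 2.7.0f and featureCounts (Subread 2.0.3) were used with mm10; annotation release, strand setting and the handling of reads with several alignments are not given in the sources used here. The members, lists and tests were chosen with earlier results of these data known.

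Counts were fitted with edgeR 4.0.16 (quasi-likelihood, robust, TMM factors) in R 4.3.3, with 1 mean for each of 12 groups leaving 12 residual degrees of freedom. Filtering by expression in edgeR, with its minimum count of 10, kept 16934 genes and removed 38407. The biological coefficient of variation was 6.43% in the median, 40.2% for Prl2c3 and 49.3% for Prl2c2. Standard errors are the log2 fold change divided by the root of the F statistic. P-values were adjusted with Benjamini and Hochberg's method over all tested genes of a comparison, for genes other than the members, and called under 0.05. There were 27 comparisons planned and 2 added. Alternatives were DESeq2 1.42.0, RLE factors, other filters, blocks, length and GC trends, the members summed, and libraries or abundant genes left out. Sequences were taken from GENCODE vM21 and RefSeq tables; stretches were compared with all transcripts of GENCODE vM21. Genes named are the members, the listed genes, the 8 genes most alike by each of 2 correlations, and genes within 500 kb.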

Additional observations from a re-analysis of the deposited data

Results flagged for a closer look

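Fosl2 responded to dexamethasone differently with and without IPTG in the empty-vector cells. The difference of its log2 responses was -0.50 ± 0.09 (edgeR interaction, adjusted p = 0.00732), with a response of -0.20 ± 0.06 without IPTG. The call was lost in 5 of 22 alternatives, and the difference ran from -0.57 to -0.44 over them. The 5 were the move of the library with disagreeing labels and the omission of any 1 of 4 libraries: replicate 1 without IPTG in ethanol, replicate 2 with IPTG in ethanol, replicate 1 with IPTG in dexamethasone and replicate 2 without IPTG in dexamethasone.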

How the results depend on the processing

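No member's non-overlapping difference changed sign under any alternative run. For groups that do not overlap, leaving out 1 library cannot reverse the sign, so those runs do not bear on it. Most log2 values below moved by more than the spread between replicates, or are counts that moved by over 1.5 times. What caused this was not tested. With 1 library left out, Prl2c2 did not move that far for C1 over the empty vector in dexamethasone. Nor, in these omissions, did its hormone responses with the empty vector and with C1. With 1 library left out at a time, Prl2c3 in ethanol ran from 3.77 to 4.60 for IPTG over no IPTG, -1.93 to -1.10 for WT over the empty vector, -0.14 to 1.91 for C2 over the empty vector, and 1.74 to 2.87, 1.42 to 3.47 and 2.08 to 3.27 for C1, C2 and C1-C2 over WT. Prl2c2 in ethanol ran from 3.44 to 4.39 for IPTG over no IPTG, -1.72 to -0.76 for WT over the empty vector, -0.84 to 1.64 and 0.45 to 1.83 for C2 and C1-C2 over the empty vector, and 1.27 to 2.43, 0.46 to 2.94 and 1.75 to 3.11 for C1, C2 and C1-C2 over WT. In dexamethasone Prl2c3 ran from 3.41 to 3.87 for IPTG over no IPTG, 0.33 to 1.16 for C2 over the empty vector, and 1.39 to 2.22 and 1.78 to 2.10 for C2 and C1-C2 over WT. Prl2c2 in dexamethasone ran from 0.11 to 1.19 and 0.23 to 0.95 for C1 and C1-C2 over the empty vector and 1.29 to 2.38, 0.69 to 1.77 and 1.51 to 2.00 for C1, C2 and C1-C2 over WT. The dexamethasone response of Prl2c3 ran from 0.26 to 0.71 without IPTG, -0.48 to 0.34 with the empty vector, -0.58 to 0.55 with C1, -1.22 to 0.83 with C2 and -0.96 to 0.24 with C1-C2. That of Prl2c2 ran from 1.51 to 2.24 without IPTG, 0.39 to 1.33 with the empty vector, 0.66 to 1.14 with WT, 0.26 to 1.57 with C1, -0.69 to 1.79 with C2 and -0.46 to 0.90 with C1-C2. The difference of responses of Prl2c3 ran from -0.998 to -0.17 between empty-vector cells with and without IPTG, and from 0.0222 to 0.86, -0.47 to 0.67, -1.11 to 0.94 and -0.84 to 0.35 for WT, C1, C2 and C1-C2 against the empty vector. That of Prl2c2 ran from -1.56 to -0.60 with against without IPTG, and from -0.43 to 0.53, -1.50 to 0.98 and -1.29 to 0.0947 for WT, C2 and C1-C2.

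Counts of called genes with 1 library left out ran from 1107 to 1528 with IPTG in ethanol (2270 with all libraries) and from 1353 to 2168 in dexamethasone (2854). Promoter factors called ran from 1 to 2 with IPTG in ethanol and from 4 to 6 for the hormone without IPTG, and receptors and tagging genes with IPTG in dexamethasone were 0 throughout.

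Moving the library with disagreeing labels to dexamethasone changed its own comparisons. The Per1 and Tsc22d3 levels of this library were those of ethanol, so the moved values mix both treatments in the C1-C2 dexamethasone group. The response of C1-C2 became 0.63 for Prl2c3 and 1.07 for Prl2c2 (0.24 and 0.90 with the library left out), and the difference from the response of the empty vector 0.75 and 0.27 (0.35 and 0.0947 left out). C1-C2 over WT in ethanol became 2.08 and 1.75 moved or left out, C1-C2 over the empty vector for Prl2c2 0.45 either way. In dexamethasone Prl2c3 became 1.26 over the empty vector and 2.32 over WT. That move also left 1166 genes called with IPTG in ethanol and 1473 in dexamethasone, with 1 and 2 promoter factors and 0 receptors and tagging genes, and 4 promoter factors for the hormone. Summing the members gave hormone responses of 0.96 without IPTG, 0.11 with the empty vector and 0.52 with WT, and in dexamethasone 3.32 for IPTG over no IPTG and 2.23 for WT over no IPTG. Removing length and GC trends gave a response of 0.79 for Prl2c3 without IPTG and 3771 genes called for the hormone (6438 without). Leaving out the 2 most abundant genes set Prl2c3 at 1.81 CPM without IPTG in ethanol and 31.7 CPM with IPTG in dexamethasone, and Prl2c2 at 0.498 CPM without IPTG in ethanol. Of the receptors and tagging genes, 1 was called with IPTG in ethanol with no filter, in the compared libraries alone and with trends removed plus block, and 1 for the hormone with a strict filter, trends removed or any block. With IPTG in ethanol 4 promoter factors were called in the compared libraries alone or with a strict filter.

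The replicate numbers were not shown to pair the libraries. Deviations of same-numbered libraries correlated at -0.10 to 0.40 between ethanol groups (median 0.26, 11 of 15 pairs of groups over 0.1) and at -0.32 to 0.46 between dexamethasone groups (median 0.06, 6 of 15). Across treatments 21 of 36 pairs of groups were over 0.1. A replicate block within treatment gave responses of 0.53 ± 0.86, -0.05 ± 0.37 and 0.43 ± 0.44 for Prl2c3 without IPTG, with the empty vector and with WT, and of -0.35 ± 0.34 with C1-C2. It gave 3.62 ± 0.51 for Prl2c3 and 2.85 ± 0.58 for Prl2c2 for IPTG over no IPTG in dexamethasone. It called 5 promoter factors with IPTG in ethanol, and the block over all libraries called 6. No block moved a value of the members beyond the spread between replicates.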
